A study of Mus musculus with 15 samples.

Results

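The genes described here encode enzymes that place methyl groups on lysine 4 of histone H3 (H3K4), the related protein KMT2E, and the core proteins that make these enzymes active. They were taken by name and are 10 of the 21938 protein-coding genes of GENCODE M21 on the assembled chromosomes. For each gene, all summits of the WT H3K4me3 peak list were taken that lay within 1 kb of an annotated transcription start site (TSS) of the gene or inside its body. This gave 13 of the 24139 summits on chromosomes, and 11 of the 13 lay within 1 kb of a TSS, which is called a promoter summit below.

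The mark came from native chromatin immunoprecipitation of amygdala nuclei of adult male WT mice, which were F1 generation 129xB6 hybrids, with a rabbit monoclonal antibody against H3K4me3 and about 20000 nuclei per reaction. Synthetic nucleosomes carrying histone methylations were added to each reaction, and micrococcal nuclease was used to cut the chromatin. The series held 11 H3K4me3 and 4 input samples of 4 genotypes (WT, Kmt2a-HET, Kdm5c-KO and DM, the double mutant), and the WT H3K4me3 list stands for 2 of them, merged into 1 list with no value per mouse. The mutant genotypes were not analysed here, so nothing below compares genotypes, and with 1 pooled list no test between samples was possible and no value has an error between mice. The score of a summit was read as −log10 of its q-value, so a higher score means stronger evidence of enrichment over input and not an amount of methylation. The read depth behind a score is not given by the list. Of marker genes chosen for the tissue, 7 of 7 neuronal, 4 of 4 astrocyte, 4 of 4 microglial, 2 of 2 endothelial and 4 of 5 oligodendrocyte genes had a promoter summit, against 0 of 5 genes not expected in brain. Over all protein-coding genes the share was 64.7%. Median scores were 199.8 for the neuronal, 98.8 for the oligodendrocyte, 62.0 for the astrocyte, 24.6 for the endothelial and 18.3 for the microglial genes. Of the genes not expected in brain, Apoa1 and Myh6 had a summit outside promoters. In such bulk tissue a low score may come from fewer cells that carry the mark or from less of it per cell, and these cannot be told apart.

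H3K4me3 is found at the promoters of active genes and of many CpG-rich genes. In mammals it is written by enzymes with a catalytic SET domain: KMT2A and KMT2B (MLL1 and MLL2), SETD1A and SETD1B, and, mainly as the monomethyl form at enhancers, KMT2C and KMT2D. Each works with a shared core of WDR5, RBBP5 and ASH2L, while KMT2E carries a related SET domain for which H3K4 methylation has not been established.

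Promoter sequences differed widely among the genes. The RefSeq promoter table (GRCm38.p6, the assembly also known as mm10) matched 6 of the 10: Kmt2a, Kmt2c, Kmt2d, Setd1a, Wdr5 and Rbbp5. Kmt2b, Kmt2e, Setd1b and Ash2l were not matched. For 5 of the matched genes the 150 bases just before the first start in RefSeq or GENCODE, whichever came first, are shown, from 5′ to 3′ in the direction of the gene, because they span the range from the most GC-rich promoter to an AT-rich one. Capitals mark the GC box, GGGCGG or its reverse complement CCGCCC, the letters bound by Sp family factors.
Kmt2a, chr9:44881297-44881446, minus strand: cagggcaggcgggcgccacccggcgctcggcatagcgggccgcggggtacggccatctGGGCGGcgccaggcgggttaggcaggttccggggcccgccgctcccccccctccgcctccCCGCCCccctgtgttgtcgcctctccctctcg
Kmt2c, chr5:25498784-25498933, minus strand: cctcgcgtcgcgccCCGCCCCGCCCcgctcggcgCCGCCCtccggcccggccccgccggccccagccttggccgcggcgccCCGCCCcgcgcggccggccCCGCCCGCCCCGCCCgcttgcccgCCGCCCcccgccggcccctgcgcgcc
Kmt2d, chr15:98871206-98871355, minus strand: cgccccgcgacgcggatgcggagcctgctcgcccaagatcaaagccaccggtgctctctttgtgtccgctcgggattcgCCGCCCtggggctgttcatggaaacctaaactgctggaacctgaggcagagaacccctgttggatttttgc
Wdr5, chr2:27514997-27515146, plus strand: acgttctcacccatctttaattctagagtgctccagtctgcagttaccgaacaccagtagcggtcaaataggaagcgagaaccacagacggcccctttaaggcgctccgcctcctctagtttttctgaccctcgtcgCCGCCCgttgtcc
Rbbp5, chr1:132477215-132477364, plus strand: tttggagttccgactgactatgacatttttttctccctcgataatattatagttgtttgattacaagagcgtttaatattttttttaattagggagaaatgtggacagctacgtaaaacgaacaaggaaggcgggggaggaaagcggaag

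The Kmt2c stretch was 93.3% G and C and held 32 CpG dinucleotides and 8 GC boxes, some of which overlap. The Kmt2a stretch followed at 79.3% with 19 CpGs and 2 GC boxes. The Kmt2d stretch was 61.3% G and C with 12 CpGs and 1 GC box, and that of Wdr5 was 54.7% with 11 CpGs and 1 GC box. The Rbbp5 stretch was 38.0% G and C, held 7 CpGs and no GC box, and ran through T-rich and A-rich tracts. By observed over expected CpG, the ratio used below, the order differed. The Rbbp5 stretch was highest at 1.45, before Kmt2c at 1.12, Wdr5 at 1.04, Kmt2d at 0.85 and Kmt2a at 0.81. All 5 of these genes carried a promoter summit, at both ends of this range of GC content. Setd1b, the only gene of the set without one, was not matched and is not among them. These stretches therefore cannot show whether the presence of a summit varied with GC content.

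In the full windows of the promoter table, which run from 250 bases before to 50 bases after the RefSeq start, the GC box was found on either strand in 4 of the 6 genes, with 12 matches for Kmt2c, 5 for Kmt2a, 4 for Kmt2d and 2 for Wdr5. Of all 32851 promoters in the table, 35.7% held it. None of the 6 windows held any of the other motifs searched on both strands: the NRF1 core CGCATGCG (in 1.87% of all promoters), the YY1 motif AAGATGGCG (1.40%), the ETS motif CCGGAAG (8.86%), the E box CACGTG (7.15%), the cyclic AMP response element TGACGTCA (1.79%), the reversed CCAAT box ATTGG (37.4%) and the TATA box TATAAA (13.6%). No motif contains another. A match is a description of the letters and no sign of binding, and a missing match says only that the letters are not in this window.

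A promoter summit was found for 9 of the 10 genes, and the exception was Setd1b. Over all protein-coding genes the share was 64.7%. The share differed with CpG content. Of genes with a CpG-rich TSS (observed over expected CpG of at least 0.6 and at least 50% G and C within 500 bp either side) 95.8% had a promoter summit, and of the others 32.1%. All 10 genes described here were CpG-rich by this measure, so their count stood close to that of CpG-rich genes in general. The highest promoter scores of the 9 genes ranged from 176.2 for Setd1a to 294.4 for Kmt2e with a median of 203.4, beside a median of 194.6 and quartiles of 129.8 and 230.2 over the 14197 protein-coding genes that carried one. All 9 were at or above the median of the whole list, 102.3, which 52.0% of all protein-coding genes reached, and 5 of the 9 were at or above the median of marked protein-coding genes. Kmt2e stood above the other 8.

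**Figure D1:**
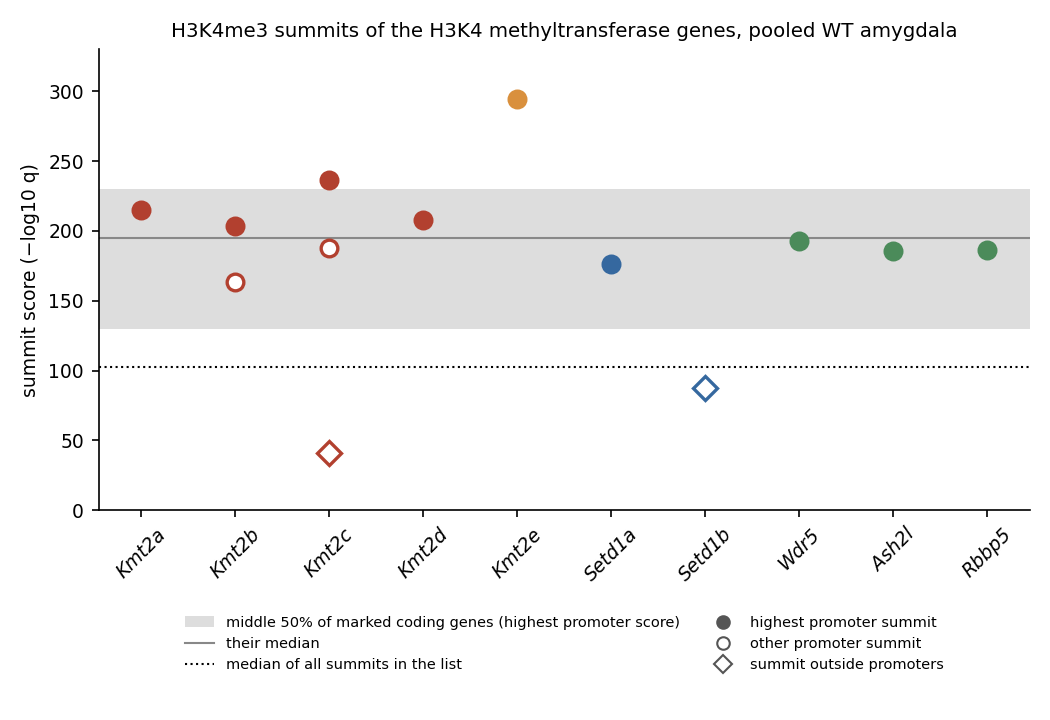
Score of every summit of the 10 genes in the pooled WT list (vertical axis, −log10 of the q-value). Filled circles are the highest promoter summit of a gene, open circles further promoter summits and diamonds summits outside promoters; the grey band and line give the quartiles and median of the highest promoter score over marked protein-coding genes, and the dotted line the median of all summits. Kmt2e stands highest at 294.4, and Setd1b has only a summit outside promoters, at 87.4.

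Among the MLL writers, the highest promoter scores lay between 203.4 and 236.1. Kmt2a, which encodes the MLL1 enzyme and is the gene for which the Kmt2a-HET mice of the study are heterozygous, lies on chr9:44803355-44881296 on the minus strand. Its only summit was in the first intron, 120 bp downstream of the nearest TSS, and its score of 215.3 was above 63.3% of the highest promoter scores of marked protein-coding genes. Its outermost start and the start nearest to the summit belong to 1 group of TSSs, while 2 further groups inside the 77.9 kb gene carried no summit.

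Kmt2b encodes MLL2, the closest relative of MLL1, in a gene of 19.9 kb on chr7:30568858-30588726, minus strand. It had a pair of promoter summits 1052 bp apart. The higher one, with a score of 203.4, lay 469 bp downstream of the nearest TSS in the first intron, and the other, with 163.4, lay 574 bp upstream of the gene, within 1 kb of the microRNA gene Mir3569. The scores of this paralogue pair were near each other (203.4 and 215.3), and the layout differed, with summits on both sides of the Kmt2b start and 1 summit at Kmt2a.

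Kmt2c encodes MLL3, an enzyme of enhancer monomethylation, in the longest gene of the set, 227.0 kb on chr5:25271798-25498783, minus strand. It had 3 summits. The highest, 236.1, lay in exon 1 of the longest transcript, 158 bp downstream of a TSS, and the second, 188.1, lay 542 bp upstream, with 781 bp between them. The score at Kmt2c was above 78.9% of marked protein-coding genes and was exceeded in the set only by Kmt2e. The third summit was much weaker, with a score of 40.7, and lay in intron 1, 26497 bp from the nearest TSS. Its relative Kmt2d, which encodes MLL4 in a gene of 39.5 kb on chr15:98831669-98871204, minus strand, had 1 summit in intron 1, 212 bp downstream of a TSS, with a score of 207.7.

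Of the 9 genes with a promoter summit, only Kmt2b and Kmt2c had more than 1, and in both the summits lay on both sides of a TSS and the lower score was close to 0.80 of the higher. Over marked protein-coding genes, 18.1% had 2 or more promoter summits, and 10.4% had them on both sides of a TSS. With 2 of 9 genes, the count is too small to be set apart from these shares.

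Kmt2e encodes the MLL-like protein MLL5. The gene lies on chr5:23434441-23504235, plus strand, and its single summit had the highest score of the set, 294.4. It was above 99.6% of all summits of the list and above 99.2% of the highest promoter scores of marked protein-coding genes. The summit lay in intron 1, 671 bp downstream of the nearest TSS, the farthest of the 9 genes. The divergent lincRNA gene 5031425E22Rik has a TSS within 1 kb of it. No gene of the comparison lists described below came near this score: the nearest was Wdr82, a subunit of the SET1 complexes, at 263.2.

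**Figure D2:**
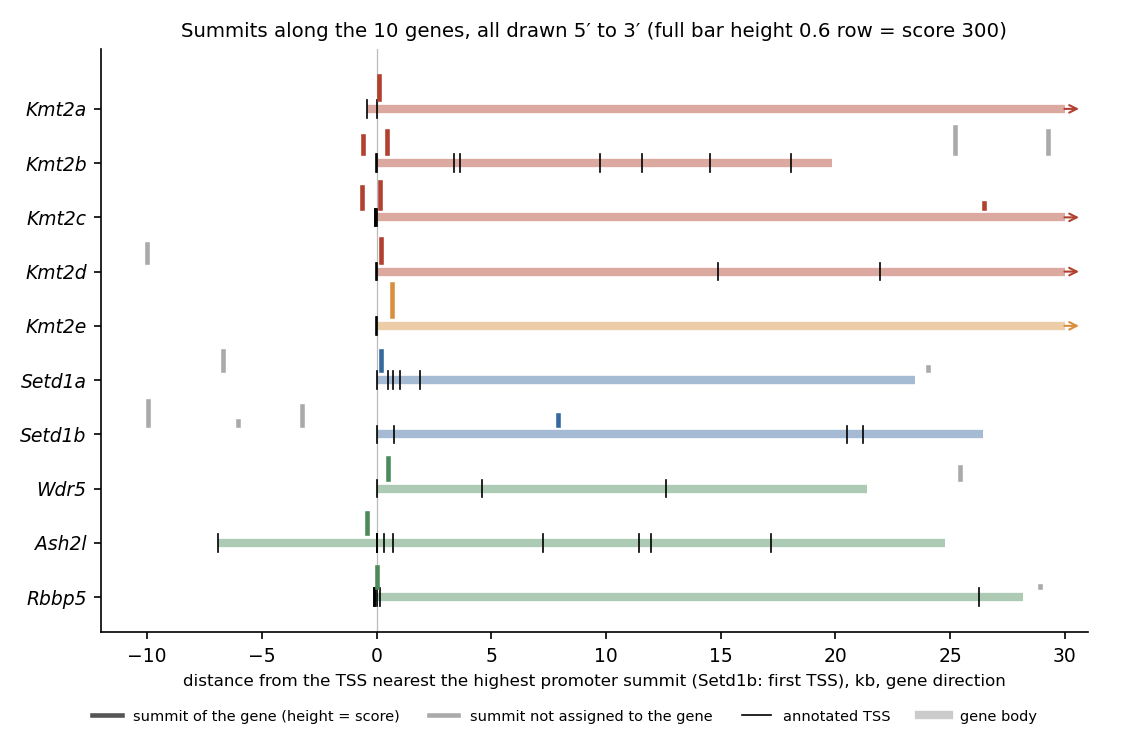
Summits along the 10 genes, drawn in the direction of each gene, with distance in kb from the TSS nearest to the highest promoter summit (for Setd1b from its first TSS). Coloured bars are summits assigned to the gene with height in proportion to the score, grey bars are summits nearby that were not assigned to it, black ticks are annotated TSSs, and pale lines are gene bodies, with an arrow where the gene runs on. Summits cluster at the zero line in every gene but Setd1b, whose own summit lies 7892 bp downstream of that TSS.

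The SET1 writers differed in whether a promoter summit was called. Setd1a, on chr7:127776670-127800122 of the plus strand, had 1 summit, in exon 1 and 175 bp downstream of a TSS, with a score of 176.2. This was the lowest highest promoter score of the 9 genes, above 39.6% of those of marked protein-coding genes. The comparison gene nearest to it was Pagr1a, a subunit of the KMT2C and KMT2D complexes, at 175.8. The Pagr1a summit also lay within 1 kb of TSSs of other genes. Setd1b, its paralogue, on chr5:123142193-123168629 of the plus strand, had no promoter summit at any score. Its only summit had a score of 87.4, below the median of the list, and lay in intron 6, 7128 bp downstream of the nearest TSS and 7892 bp downstream of the first TSS.

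The Setd1b start, which had no summit within 1 kb, was as CpG-rich as the starts of the genes with a promoter summit. Within 500 bp either side of the first TSS, observed over expected CpG was 0.78 and GC content 72.4%, and the first 500 bases after the TSS were 79% G and C, the highest of the 10 genes. Of the 944 CpG-rich protein-coding genes with a GC content from 70 to 75%, 890 (94.3%) had a promoter summit and 54 had none. In the 2001 bases centred on the TSS, no stretch of 75 bases or more matched another place on the chromosomes at 97% identity or above, and none of the bases was unknown in the assembly. Only Setd1a and Rbbp5 had such matches, over 6.45% and 6.85% of their windows, and both had a promoter summit. Repeat-masked sequence made up 20.4% of the Setd1b window, beside 21.4% for Setd1a and 18.0% for Rbbp5. In the other genes it ranged from 3.0% in Wdr5 to 11.0% in Kmt2d. Whether sequence that is hard to map contributed to the missing summit was not tested. 

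A further 3 summits lay in the 10 kb upstream of Setd1b, and the genes next to them were chosen after their values were seen. The nearest, 3248 bp upstream with a score of 170.1, was at a TSS of the lincRNA genes 4932422M17Rik and AI480526. The others, with scores of 32.6 and 216.4, were 6046 and 9966 bp upstream, at TSSs of the lincRNA gene Gm38102 and of Rhof, which encodes a small GTPase. The outermost start of AI480526, a lincRNA on the opposite strand, lies 527 bp from the first Setd1b TSS, and it too was without a summit, the nearest being 2721 bp away. Both divergent starts thus had no summit within 1 kb, while summits were called farther out on either side. The list gives summit positions and no peak widths, so whether a peak reached these starts is not known.

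The core subunits had similar scores. Wdr5 encodes the WD40 protein that binds the writers, and its gene on chr2:27515157-27536535, plus strand, had 1 summit in intron 1 with a score of 192.9, 513 bp downstream of the TSS. Rbbp5, which encodes a second WD40 protein of the core, on chr1:132477365-132505659 of the plus strand, had 1 summit with a score of 186.1, 37 bp downstream of a TSS. Ash2l encodes the subunit that, with RBBP5, stimulates the SET domain, and its gene on chr8:25815996-25847694, minus strand, had 1 summit with a score of 185.4. The 3 scores lay within 8 units of each other and below those of all 4 MLL writers, whose lowest was 203.4. With 1 pooled list and few genes, this order has no measure of error, and neighbours in it, such as Wdr5 and Kmt2b, cannot be separated.

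Ash2l was the only one of the 9 genes whose highest promoter summit lay upstream of its nearest TSS, by 424 bp, and the only one whose outermost TSS group had no summit. The marked TSS, at position 25840787, lies inside the annotated gene, and the outermost TSS, at 25847694, had no summit within 1 kb. The sequence differed in the same way: observed over expected CpG was 0.84 around the marked TSS and 0.43 around the outermost one, with GC contents of 61.5% and 48.9%. Among marked protein-coding genes with 2 or more groups of TSSs, the outermost group was without a summit in 10.5%.

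The 10 genes have 36 groups of TSSs, where starts of a gene within 1 kb of the next were put together, and 9 of the groups carried a summit, 1 in each gene but Setd1b. Of the 27 groups without a summit, 26 were not CpG-rich at their first TSS, and the other was the first group of Setd1b. All 9 marked groups were CpG-rich. Over protein-coding genes with 2 or more groups, 29.5% of groups carried a summit. That share leaves out genes with 1 group, such as Setd1a, whose group is counted in the 9 of 36. None of the 9 genes had a second marked group, and Setd1a could not have one. The share of coding genes with a second marked group was not computed, nor were shares of CpG-rich groups over all coding genes. Kmt2b, with 6 groups, and Kmt2c, Kmt2e and Ash2l, with 5 each, had the most annotated starts and 1 marked group each.

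**Figure D3:**
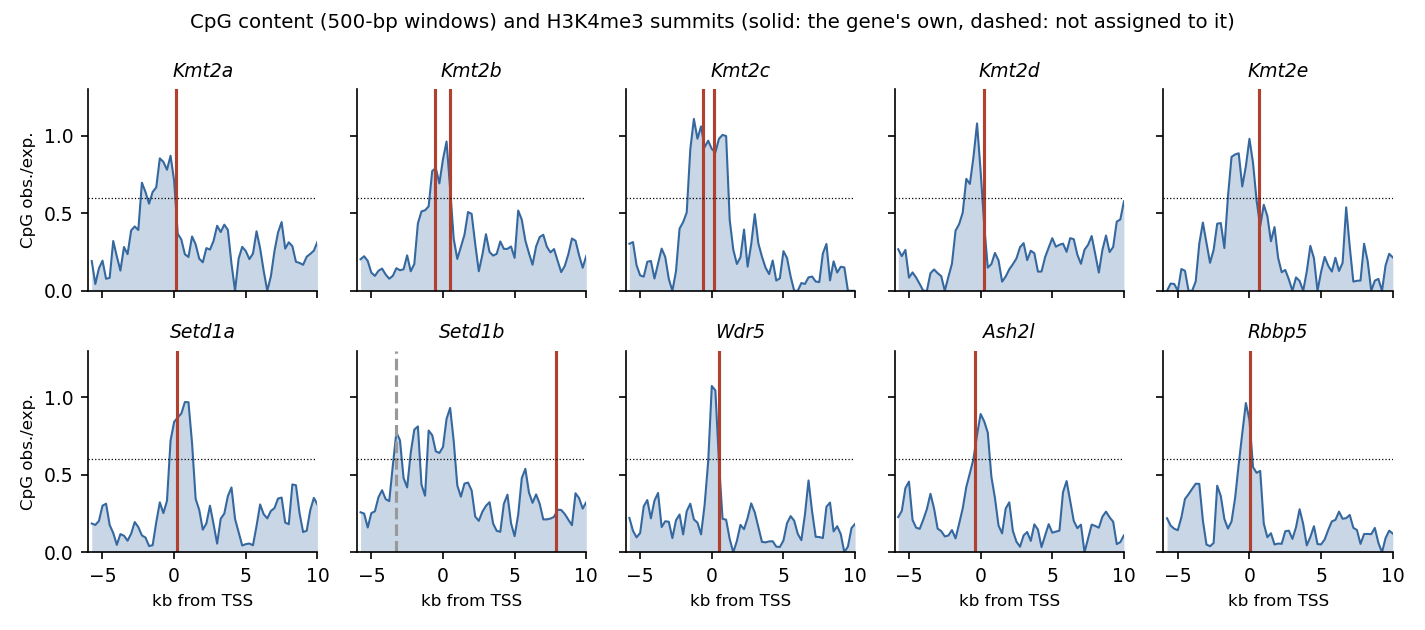
Observed over expected CpG in windows of 500 bp (vertical axis) along 16 kb of each gene, by distance in kb from the TSS used above. Solid lines are the gene's own summits, dashed lines summits not assigned to it, and the dotted line is the limit of 0.6. Each gene has a CpG-rich stretch at the TSS; 9 genes have a summit in it or at its edge, and that of Setd1b has none.

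Positions of the summits relative to the TSS were close to those of coding genes in general. The highest promoter summit lay downstream of the nearest TSS in 8 of the 9 genes, against 79.3% over marked protein-coding genes, with a median of 175 bp and a range from -424 to 671 bp; the median over marked protein-coding genes was 171 bp. It fell in exon 1 in Kmt2c and Setd1a and in intron 1 in the other 7. For Ash2l this was intron 1 of a transcript from the outermost TSS, since the summit lay upstream of the marked TSS. Exon and intron were read from the longest transcript of the GENCODE basic set that covers the summit. That transcript need not start at the nearest TSS. In 6 of the 9 genes the CpG ratio around the summit was lower than that around the TSS, as in 58.4% of marked protein-coding genes. The difference was largest in Kmt2d, 0.52 around the summit against 0.81 around the TSS, and in Kmt2e, 0.59 against 0.81, while in Setd1a the ratio was higher around the summit, 0.89 against 0.80.

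Promoter CpG ratios ranged from 0.69 in Kmt2a to 0.92 in Kmt2c, with a median of 0.80 over the 10 genes, beside a median of 0.72 over marked protein-coding genes and 0.59 over all of them. These were taken at the TSS nearest to the highest promoter summit, or at the outermost TSS where a gene had none. The choice of TSS thus depended on the summit, which can raise the ratio of marked genes. GC content ranged more widely, from 50.3% in Rbbp5 to 78.2% in Kmt2c. Genes with similar sequence could differ in score. Kmt2e, with the highest score, had a ratio of 0.81 and a GC content of 67.3%, close to those of Kmt2d (0.81 and 65.1%), which scored 207.7. Rbbp5 and Ash2l scored within 1 unit of each other with GC contents of 50.3% and 61.5%.

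**Figure D4:**
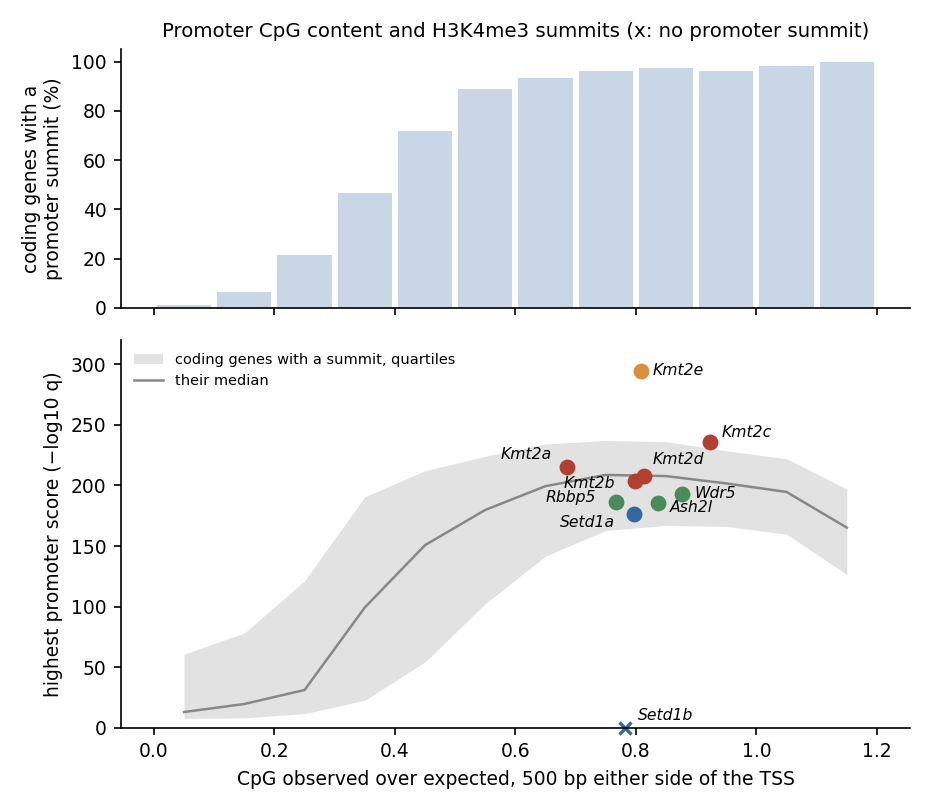
Upper panel, percentage of coding genes that carry a promoter summit, in bins of 0.1 of observed over expected CpG within 500 bp of the TSS; lower panel, highest promoter score against the same ratio, with the quartiles (band) and median (line) of marked protein-coding genes and each of the 10 genes as a point. The ratio was taken at the TSS nearest to the highest promoter summit, or at the outermost TSS where a gene had none, which can raise the ratio of marked genes. All 10 lie where most coding genes are marked, Kmt2e lies above the band, and Setd1b, drawn as a cross at zero, has no promoter summit.

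Another gene's TSS lay within 1 kb of a promoter summit in 5 of the 9 genes that had one, and in each case the other gene is on the opposite strand and codes for no protein. Over marked protein-coding genes, 31.9% had such a summit, and in 34.8% of these all the other genes were on the opposite strand and without a protein product. At the 5 genes they were the antisense gene AC061963.1 at Kmt2a, Mir3569 at Kmt2b, the lincRNA genes 4831440E17Rik at Kmt2c and 5031425E22Rik at Kmt2e, and the processed transcript 6030442K20Rik at Rbbp5. For the highest promoter summit alone this held for 4 of the 9 genes, against 30.2% of marked protein-coding genes. The assay does not read the strand, so the mark at these summits cannot be assigned to 1 of the 2 genes.

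Summits outside promoters were found in Kmt2c and Setd1b, 1 in each. Among protein-coding genes 14.7% had such a summit, and among those no shorter than Kmt2b and no longer than Kmt2c, the shortest and the longest of the set, 20.3%, so 2 of 10 genes was close to these shares. A summit in the body was found in 8.18% of those without a promoter summit, and in 36.5% of those that also were CpG-rich, as Setd1b is. Neither summit lay within 1 kb of a TSS of any annotated gene. The reference bases at both are shown in the direction of the gene, 60 bases either side of the summit, with CpG dinucleotides in capitals, because they contrast with the promoters above.
Kmt2c, chr5:25472145-25472265, minus strand: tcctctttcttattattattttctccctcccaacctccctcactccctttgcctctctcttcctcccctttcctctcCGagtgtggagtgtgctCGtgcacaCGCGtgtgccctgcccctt
Setd1b, chr5:123150025-123150145, plus strand: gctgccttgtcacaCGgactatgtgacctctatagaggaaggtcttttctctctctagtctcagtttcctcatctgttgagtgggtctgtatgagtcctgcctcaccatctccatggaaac

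These stretches held 4 CpGs in Kmt2c and 1 in Setd1b. Within 500 bp either side, observed over expected CpG was 0.19 around the Kmt2c summit and 0.24 around that of Setd1b, with GC contents of 40.8% and 55.1%, so neither was CpG-rich. The scores also differed from the promoter summits of the set, which began at 163.4: the Kmt2c summit, at 40.7, was above 37.0% of the list, and that of Setd1b, at 87.4, above 47.3%. The promoter summits of the Kmt2c gene scored 236.1 and 188.1, and that of Setd1a, the paralogue of Setd1b, 176.2.

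The partner subunits, erasers and other histone lysine methyltransferases were mostly marked as well. All 14 further subunits of the MLL and SET1 complexes had a promoter summit, with scores from 175.8 for Pagr1a to 263.2 for Wdr82 and a median of 218.1. All 6 H3K4 demethylases had one, from 136.6 for Kdm5d, the Y-linked member of the KDM5 family, to 245.7 for Kdm1a, which encodes LSD1, with a median of 192.8. So did all 19 genes of H3K9, H3K27, H3K36, H3K79 and H4K20 methylation, from 89.2 for Setdb1, an H3K9 methyltransferase, to 259.1 for Ash1l, an H3K36 methyltransferase, with a median of 171.9. The summits of Pagr1a, Setdb1 and Ash1l also lay within 1 kb of another gene's TSS, so these scores cannot be assigned to 1 gene. Together 39 of 39 genes of these lists had a promoter summit, and 37 were at or above the median of the list. Over all protein-coding genes the shares were 64.7% and 52.0%. All of the 39 but Pagr1a and Kdm5d were CpG-rich, and 95.8% of CpG-rich protein-coding genes had a promoter summit. The count of marked genes thus stood close to the share of CpG-rich genes in general. Of 5 further enzymes that were listed apart under the label tissue-restricted, 4 were marked, from 185.4 for Smyd2 to 222.8 for Prdm9, the H3K4 methyltransferase of meiotic germ cells. Whether the label holds for each of them was not tested. Smyd1, a muscle gene, had no promoter summit. Setd1b was thus the only gene of these 3 lists and the set of 10 without a promoter summit. Over all protein-coding genes, 471 CpG-rich ones were without one.

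**Figure D5:**
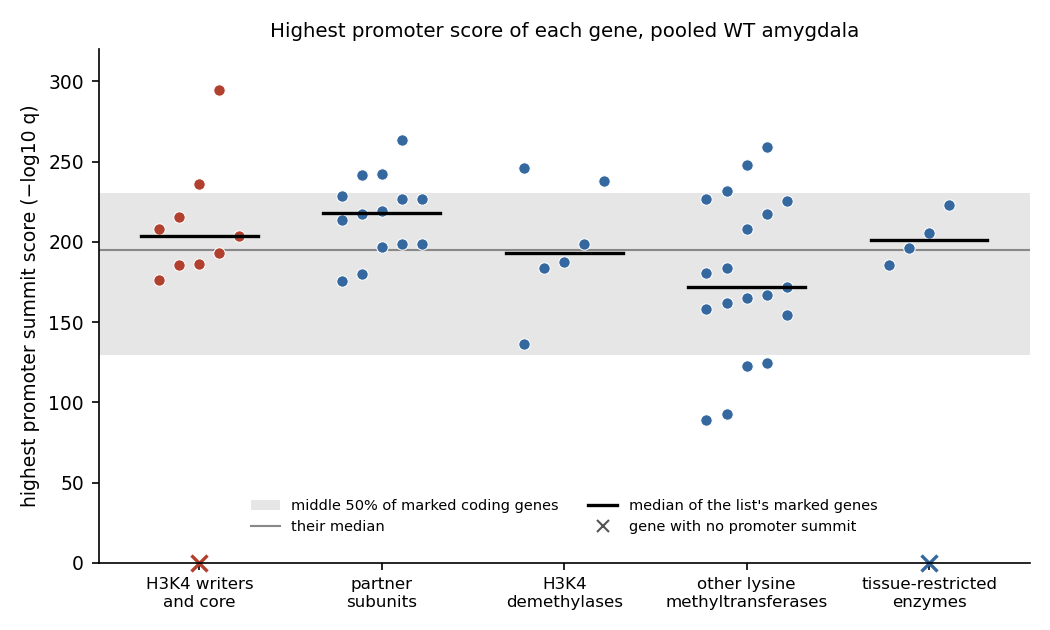
Highest promoter score of every gene (vertical axis, −log10 of the q-value) in the H3K4 writers with their core and in 4 comparison lists. Points are genes, black bars medians over marked genes, crosses genes with no promoter summit, and the grey band and line the quartiles and median over marked protein-coding genes. Kmt2e lies above every gene of the comparison lists, and Setd1b and Smyd1 are the only genes drawn as crosses.

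Many summits of the list share a score, since 24139 summits had 5974 distinct values, which limits how finely genes can be ordered. The score of Kmt2a was shared by 106 other summits, that of Kmt2c by 90, of Kmt2d by 85, of Setd1a by 73 and of Ash2l by 67. That of Kmt2e was shared by 2. The nearest other summit was 39.8 kb away for Kmt2a and 56.3 kb away for Ash2l, so these promoter summits stood alone, whereas another summit lay 6.85 kb from that of Setd1a, with almost the same score (176.1 against 176.2).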

How the data were processed

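H3K4me3 ChIP-seq was performed by the authors on amygdala nuclei. Per the study's methods, reads were aligned with Bowtie (build mm10 in the submitters' processing notes), only uniquely mapped reads were kept, and peaks were called with MACS2 2.1.0.20140616 against input at a q-value limit of 0.1. The authors deposited 1 list for both WT samples, in which every summit has a score. The scale is not named in the deposited list and was taken to be −log10 of the q-value that the authors obtained from MACS2. Columns of single samples that could not be matched numbered 0.

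Of 24162 summits, 23 on other sequences were set aside. Summits were assigned with GENCODE M21. A promoter was 1 kb either side of any TSS of a gene. CpG content and sequences came from GRCm38. Repeated sequence was searched with BLAST 2.17.0. Genes and comparison lists were chosen with earlier results of these data known. The text names every gene of the set, and of the comparison lists those without a promoter summit, the highest and lowest score of each, and the gene nearest in score to Kmt2e and to Setd1a. The method of assignment was tested on simulated data. A planned comparison of protein sequences was not run, and 1 further marker gene is not reported here. Alternatives covered the window, the TSSs, score thresholds and joining of summits. Python 3.11.15, pandas 2.3.3 and pysam 0.24.0 were used.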

Additional observations from a re-analysis of the deposited data

How the results depend on the processing

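The 9 genes with a promoter summit remained 9 with a window of 3 kb, with TSSs of protein-coding transcripts only, with score thresholds, and with RefSeq TSSs added, an alternative chosen after seeing the data. With a window of 500 bp they were 7, because the Kmt2e and Wdr5 summits lay farther out, and with the outermost TSS of each gene only they were 8, without Ash2l. Where a promoter summit was left, the highest promoter score was the same to 3 digits in all 42 values over 5 alternatives. A score is a fixed entry of the list, so it could not change wherever the highest summit was kept. The score thresholds, 10 and the list median of 102.3, could not remove any of the 9 genes either, since their lowest score was 176.2. Neither result is therefore a test of robustness. Summits of the genes outside promoters numbered 4 with a window of 500 bp and 0 among summits at or above the median of the list, in place of 2. With outermost TSSs only, the median of the highest promoter scores was 205.6 in place of 203.4 and the median distance from the TSS 358.5 bp in place of 175 bp, and with a window of 500 bp the distance was 158 bp. The median CpG ratio was 0.85 within 250 bp and 0.81 at outermost TSSs, in place of 0.80. Over all coding genes, the percentage with a promoter summit ranged from 52.0% to 67.1% over the alternatives, and that with a summit outside promoters from 3.22% to 23.8%.

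No paired analysis was possible because both WT samples are merged in 1 list, for which reason leaving out a replicate was not run either. A score combines enrichment with read depth, which the list does not give, so a missing summit is one that was not called at this depth and not a promoter shown to lack the mark.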
